A study of Mus with 8 samples.

Results

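Dntt, Ly6d, Rag1 and Rag2 are 4 of the 32285 genes counted in single blood progenitor cells of mice, and they were followed here between birth and day 14 of life. They were picked by name because an earlier look at the same cells had shown Dntt and Ly6d among the genes that differed most between the ages, so the age ratios below are a description and carry no test. Every gene row was read in cells with at least 7500 gene UMI (unique molecular identifiers, each standing for 1 captured RNA molecule) and at most 10% of UMI from mitochondrial genes. That left 35549 cells.

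The 4 genes belong to the first steps of lymphocyte development. Rag1 and Rag2 encode the subunits of the recombinase that cuts antigen receptor genes at V(D)J joints. Dntt encodes terminal deoxynucleotidyl transferase (TdT), which adds untemplated nucleotides to the cut ends. Ly6d encodes a surface protein that marks lymphoid progenitors as they turn towards the B cell fate. Progenitors of this kind carry the receptors Flt3 and Il7r. TdT is known for its low activity in fetal lymphocyte development, in which receptor joints hold few added nucleotides.

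The cells were sorted as Lin-Kit+ (LK) or as Lin-Sca1+Kit+ (LSK), the fraction that holds the stem cells. They came from newborn mice (P0, day 0) or mice at P14 (day 14), of genotype Ifnar+/- or Ifnar-/-. Every group therefore carried at least 1 altered Ifnar copy, and no wild-type cells were part of the comparison. The labels name neither the organ nor the number of mice, and they write Ifnar without a number. RNA and 10 antibody tags were counted in the same cells (CITE-seq).

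Each of the 8 combinations of age, fraction and genotype had 1 library. There is thus no replicate error, no difference was tested, and every interval below covers counting error only. The libraries held 2411 to 5891 cells, with a median of 25597 to 46231 gene UMI per cell, and any 2 libraries shared 1 to 10 cell barcodes. Ifnar1, read as the targeted gene, was at 14.7 to 36.9 CPM (gene UMI scaled to a common library total of 1e6) and was slightly lower in the Ifnar-/- library of each pair. These 3' reads need not fall in a deleted part, so they check nothing. The sort was visible in Ly6a, which encodes Sca1: in Ifnar+/- cells it was at 75.9 CPM in LSK against 11.2 in LK at P0, and at 47.0 against 8.90 at P14. In Ifnar-/- cells the corresponding values were 30.8 against 1.54 and 31.4 against 4.45. Kit was at 130 to 231 CPM in all 8 libraries.

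Dntt (ENSMUSG00000025014) lies at chr19:41029275-41059525 and Ly6d (ENSMUSG00000034634) at chr15:74762056-74763567 of the mouse build GRCm38 (mm10), by the RefSeq annotation. Rag2 (ENSMUSG00000032864, chr2:101624712-101632528) and Rag1 (ENSMUSG00000061311, chr2:101638252-101649532) are neighbours, with 5723 bp between them. The Rag2 interval overlaps that of B230118H07Rik by 4320 bp. That gene stood at 36.9 to 59.7 CPM, so some UMI counted for Rag2 may belong to it, and Rag2 values are less certain than the others.

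Dntt was nearly absent at birth. In LK cells it was at 0.102 CPM (31 UMI) in the P0 Ifnar+/- library and 0.0840 CPM (20 UMI) in the P0 Ifnar-/- library, against 45.2 CPM (4539 UMI) and 50.3 CPM (7548 UMI) at P14. In LSK cells it was at 0.434 CPM (77 UMI) and 0.169 CPM (23 UMI) at P0, against 134 CPM (17475 UMI) and 93.9 CPM (11721 UMI) at P14. The highest P0 library was thus far below the lowest P14 library.

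The log2 ratio of P14 over P0 was 8.76 in LK Ifnar+/- (95% interval 8.28 to 9.34), 9.19 in LK Ifnar-/-, 8.26 in LSK Ifnar+/- and 9.09 in LSK Ifnar-/-. The plain ratios of CPM, without the 0.5 counts added before the log, were 441-fold, 599-fold, 308-fold and 556-fold. The last rests on 23 UMI at P0, of which 1 cell held 14. In each of the 4 pairs Dntt ranked 1 from the top among the 13695 to 14044 genes with at least 50 UMI in either library of the pair.

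**Figure D1:**
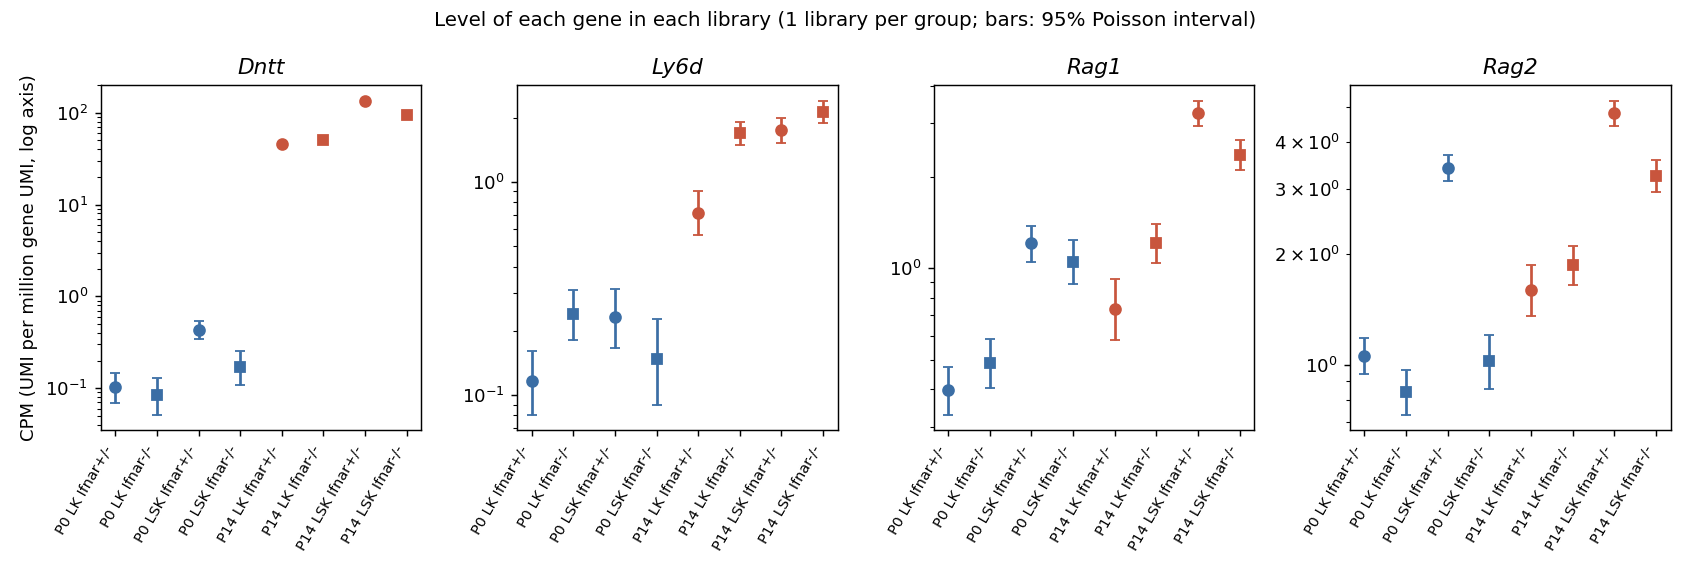
Level of Dntt, Ly6d, Rag1 and Rag2 in each of the 8 libraries, in CPM on a log axis whose range differs between panels; bars are 95% Poisson intervals, which cover counting error only. Dntt and Ly6d are higher in each P14 library than in any P0 library, whereas the ages overlap for Rag1 and Rag2.

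Ly6d was higher at P14 in each pair, from very few cells. In LK it was at 0.116 and 0.239 CPM at P0 in the order Ifnar+/-, Ifnar-/-, and at 0.717 and 1.69 CPM at P14. LSK cells held 0.231 and 0.147 CPM at P0, and 1.74 and 2.13 CPM at P14. The ages did not overlap in CPM, and the log2 ratios were 2.62, 2.81, 2.90 and 3.83.

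Before thinning, a Ly6d UMI was found in 14, 16, 20 and 6 cells of the P0 libraries and in 12, 29, 39 and 28 cells of the P14 libraries, in the order LK Ifnar+/-, LK Ifnar-/-, LSK Ifnar+/-, LSK Ifnar-/-. That order is kept below wherever 4 values are given for an age. The 10 cells richest in Ly6d held 72.8% to 100% of a library's Ly6d UMI. The counting interval of a sum of UMI does not cover this concentration in a few cells.

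Rag1 differed less between the ages. It was at 0.397, 0.487, 1.21 and 1.05 CPM at P0 and at 0.736, 1.21, 3.24 and 2.36 CPM at P14. The log2 ratios were 0.90, 1.31, 1.42 and 1.17. P0 LSK cells held more Rag1 than P14 LK Ifnar+/- cells, so the ages overlapped once fractions were mixed, although within each fraction P14 was higher in CPM.

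Rag2 was at 1.06, 0.844, 3.42 and 1.02 CPM at P0 and at 1.59, 1.86, 4.8 and 3.25 CPM at P14. Its log2 ratios were 0.59, 1.14, 0.49 and 1.67. The P0 LSK Ifnar+/- library, at 3.42 CPM, was above the P14 LSK Ifnar-/- library, at 3.25 CPM, with intervals of 3.15 to 3.70 and 2.94 to 3.58 that overlapped.

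Of the 16 combinations of gene and pair, 13 were at least 2-fold higher at P14: Dntt and Ly6d in 4 of 4 pairs, Rag1 in 3 and Rag2 in 2. Among all genes that met the minimum of 50 UMI, 5.6% (LK Ifnar+/-), 6.08% (LK Ifnar-/-), 3.67% (LSK Ifnar+/-) and 2.69% (LSK Ifnar-/-) were at least 2-fold higher, and 0.928% were so in all 4 pairs. The 4 genes were chosen with this contrast in view, so nothing is read from their count. In bulk sums such as these, fewer cells of a type and less RNA per cell cannot be told apart, so the genes were next read cell by cell.

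Each cell was thinned at random to 7500 UMI so that depth was equal. Dntt was then detected in 0.102%, 0.0867%, 0.176% and 0.0288% of P0 cells (6, 5, 9 and 1 cells). At P14 it was detected in 8.17% of LK Ifnar+/- cells (exact 95% interval 7.11% to 9.34%), 9.27% of LK Ifnar-/- cells, 20.8% of LSK Ifnar+/- cells (19.7% to 22%) and 18.7% of LSK Ifnar-/- cells (17.6% to 19.9%). Without thinning the P14 shares were 12.9%, 14.1%, 32.4% and 29.1%, and the P0 shares 0.340%, 0.173%, 0.840% and 0.259%. For Dntt the age difference held at either depth. Rag1 was detected in 0.509%, 0.399%, 0.703% and 0.547% of thinned P0 cells and in 0.456%, 0.695%, 1.47% and 1.07% at P14. Its thinned share was thus lower at P14 in LK Ifnar+/- (30 cells at P0, 11 at P14), and its intervals overlapped between the ages except in LSK Ifnar+/-. Without thinning the Rag1 shares were 1.035%, 0.902%, 2.13% and 1.47% at P0 and 1.78%, 1.47%, 3.53% and 2.69% at P14. They were higher at P14 in each pair, with intervals that overlapped in LK and not in LSK. Rag2 was detected in 1.22%, 1.02%, 2.265% and 0.547% of thinned P0 cells and in 1.37%, 1.60%, 2.56% and 1.94% at P14. Its intervals overlapped except in LSK Ifnar-/-. Without thinning the Rag2 shares were 4.21%, 2.84%, 8.005% and 2.77% at P0 and 4.77%, 5.20%, 8.23% and 6.11% at P14. Those intervals overlapped in both Ifnar+/- pairs and in neither Ifnar-/- pair.

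Cells with 3 or more Dntt UMI made up 4.48%, 4.97%, 9.60% and 6.86% of thinned P14 cells, and 0, 0, 2 and 1 cells of the P0 libraries. Without thinning, 72, 114, 234 and 150 P14 cells held 20 or more Dntt UMI and no P0 cell did. The richest P14 cells held 137 to 215 Dntt UMI.

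**Figure D2:**
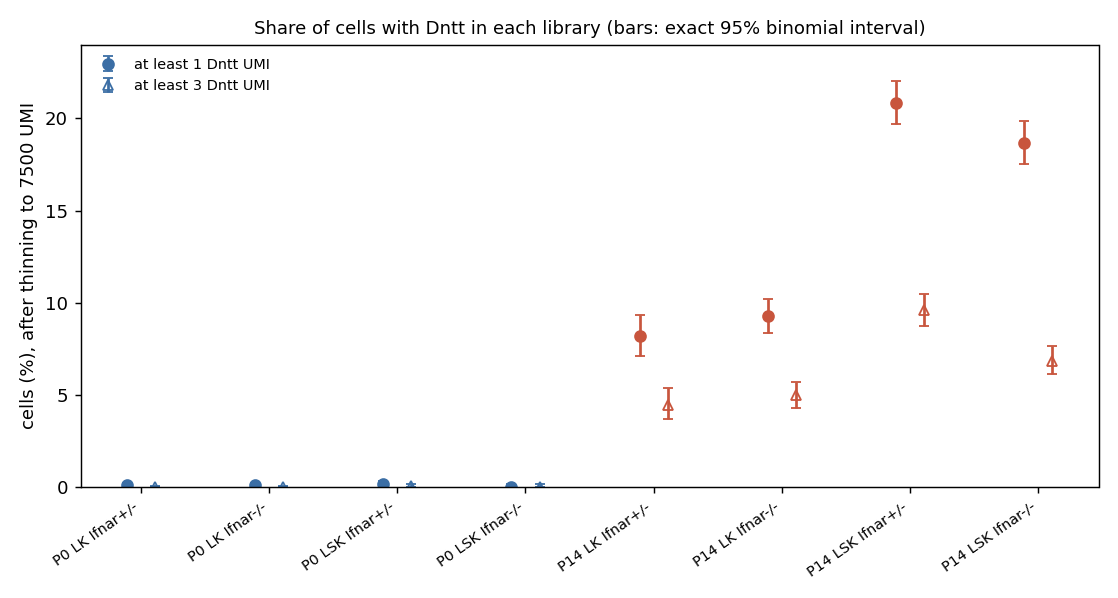
Share of cells, in percent, with at least 1 (circles) or at least 3 (triangles) Dntt UMI in each of the 8 libraries after thinning to 7500 UMI; blue marks P0 and red P14, and bars are exact 95% binomial intervals for counting error only. P0 libraries lie near 0, and the P14 LSK libraries lie above the P14 LK libraries at either limit.

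Free RNA in the droplets gives a floor for such shares. In cells with 10 or more UMI of erythroid genes, which should not transcribe Dntt, 0.630% of 476 cells in P14 LK Ifnar+/- and 0.534% of 937 cells in P14 LK Ifnar-/- held a Dntt UMI. The median depth before thinning was 51002 and 50139 UMI in those cells, against 38090 and 34339 UMI in all cells of the libraries. The LK shares of 8.17% and 9.27% were above that level.

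Cells with 10 or more UMI of neutrophil genes held Dntt in 1.97% and 3.72% of cases in P14 LK, and in 17.1% of 170 cells and 8.40% of 131 cells in P14 LSK. Flt3 was detected in 21.8%, 21.1%, 51.2% and 45.8% of these cells. With 20 or more neutrophil UMI needed, the Dntt shares were 0.905% and 0.767% in P14 LK, and 2 of 49 cells and 1 of 47 cells in P14 LSK. Flt3 was then detected in 17.4%, 15.4%, 40.8% and 38.3%, so neither gate was free of Flt3 cells.

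The LSK libraries held only 14 and 10 such erythroid cells at P14, with 0 and 1 that held Dntt, which is too few to set a floor. Barcodes of at most 100 UMI, which hold free RNA, carried Dntt at 239 CPM in P14 LSK Ifnar+/- and at 104 CPM in P14 LSK Ifnar-/-. In P14 LK these barcodes carried 44.6 and 45.8 CPM. Cells of LSK that held Hlf, Procr and other stem cell genes (3 or more UMI over the HSC list) had a Dntt UMI in 13.5% of cases in either genotype, and 3 or more in 3.66% and 3.19%. That gate is no background without Dntt, since the 443 P14 LSK Ifnar+/- cells with 3 or more Dntt UMI also held 590 Hlf UMI. For want of such a background, single Dntt UMI in LSK cells could not be separated from free RNA.

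Rag1 and Ly6d were found in 0 cells of the erythroid gate in any library. For the P14 LK libraries a count of 0 allows a share of up to 0.630% of 476 cells and 0.320% of 937 cells, taken here and below as 3 counts of the total. Rag2 was also found in none of them, but it was present in 0.954% to 2.94% of cells with 10 or more UMI of neutrophil genes in 7 of 8 libraries. In the remaining library, P0 LSK Ifnar-/-, that gate held 57 cells, none with Rag2 after thinning. Among cells with any Rag2 UMI, 67.6% to 82.3% held exactly 1, so detection of Rag2 rests mostly on single UMI. The summed level need not: in P14 LSK Ifnar+/- such cells held 257 of the 628 Rag2 UMI. For Rag1 the share of cells with exactly 1 UMI was 51.9% to 79.1%.

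Rag1 cells of the 2 ages differed in what else they contained. After thinning, Rag1 was detected in 30, 23, 36 and 19 P0 cells and in 11, 27, 68 and 47 P14 cells. Dntt was detected in 0, 0, 2 and 1 of the P0 Rag1 cells, and in 10, 24, 56 and 38 of the P14 Rag1 cells. The P14 shares were 90.9% (exact 95% interval 58.7% to 99.8%), 88.9% (70.8% to 97.6%), 82.4% (71.2% to 90.5%) and 80.9% (66.7% to 90.8%). The P0 shares were 0% in LK, where a count of 0 allows up to 10% and 13%, 5.56% (0.680% to 18.7%) in LSK Ifnar+/- and 5.26% (0.133% to 26.0%) in LSK Ifnar-/-. No P0 interval or limit reached a P14 interval.

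A part of the P0 Rag1 cells carried genes of later B cell progenitors, which were detected less often in P14 Rag1 cells. Igll1, which encodes a part of the surrogate light chain of the pre-B cell receptor, was detected in 46.7%, 52.2%, 36.1% and 47.4% of P0 Rag1 cells. At P14 it was detected in 9.09%, 0%, 2.94% and 0%. Vpreb1, the partner of Igll1 in that light chain, was found in 36.1% to 60.9% at P0 and in 0% to 4.26% at P14. Vpreb3 was found in 36.1% to 69.6% and in 5.88% to 9.09%. Pax5, the transcription factor that commits cells to the B lineage, was found in 31.6% to 47.8% at P0 and in 4.41% to 9.09% at P14.

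Genes that mark earlier lymphoid cells differed less or in the other direction. Flt3 was detected in 36.7%, 26.1%, 52.8% and 52.6% of P0 Rag1 cells and in 81.8%, 88.9%, 83.8% and 87.2% of P14 Rag1 cells. Il7r was found in 47.4% to 73.9% at P0 and in 42.6% to 63.0% at P14. Ebf1, an early B lineage transcription factor, was found in 52.6% to 82.6% and in 45.5% to 63.0%. For both of these the ages overlapped.

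**Figure D3:**
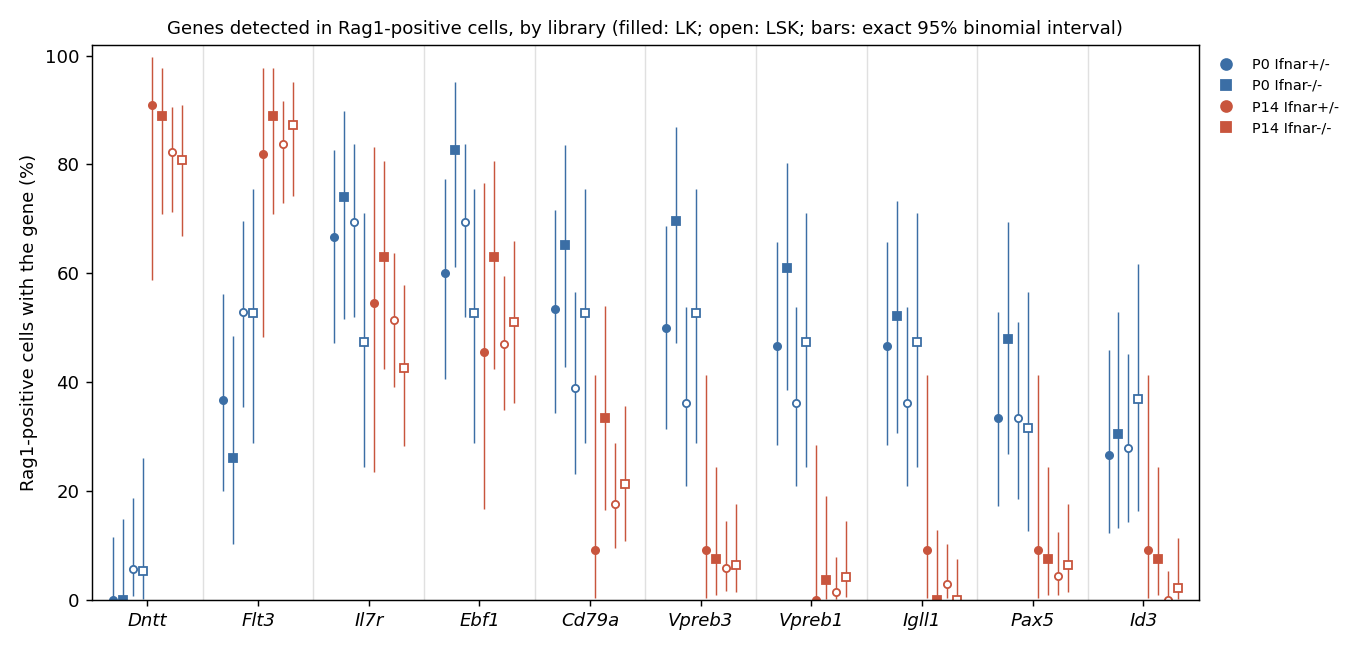
Share of Rag1-positive cells, in percent, in which each of 10 genes was detected, by library, after thinning to 7500 UMI; bars are exact 95% binomial intervals. Dntt (ENSMUSG00000025014) lies at 0% to 5.56% at P0 and at 80.9% to 90.9% at P14, and Igll1 lies at 36.1% to 52.2% at P0 and at 0% to 9.09% at P14.

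Rag1 cells without B cell genes were then compared between the ages. This subset was chosen after the values above had been seen. Rag1 cells with no UMI of Cd79a, Igll1, Vpreb1 or Vpreb3 numbered 14, 7, 21 and 9 at P0 and 10, 18, 55 and 35 at P14. Flt3 was detected in 57.1% to 77.8% of them at P0 and in 83.6% to 90.0% at P14. Dntt was detected in 0, 0, 1 and 0 of these P0 cells, and in 9, 15, 43 and 26 of these P14 cells, or 74.3% to 90.0%. Il7r was found in 6, 3, 12 and 0 of the P0 cells and in 6, 9, 25 and 12 of the P14 cells, and Ebf1 in 2, 3, 10 and 0 and in 4, 9, 20 and 13. The subset therefore still mixed cells with and without these genes, and in P0 LSK Ifnar-/- it held neither. The age difference in Dntt was thus also present in Rag1 cells without those 4 B cell genes.

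Cells were also chosen without Rag1, by Flt3 and Il7r. Cells with both Flt3 and Il7r numbered 78, 59, 157 and 9 at P0 and 36, 77, 121 and 78 at P14. Dntt was detected in 2.56%, 3.39%, 1.91% and 0% of them at P0 and in 77.8%, 89.6%, 93.4% and 89.7% at P14. The 0 of 9 cells of P0 LSK Ifnar-/- allow a share of up to 33.3%. Rag1 was detected in 7.69%, 6.78%, 9.55% and 22.2% of the same cells at P0, and in 16.7%, 18.2%, 24.8% and 21.8% at P14. Rag2 was detected in 15.2% to 22.2% at P0 and in 20.5% to 28.9% at P14, with exact intervals that overlapped between the ages in each pair. For Rag1 the intervals overlapped in 3 pairs and did not in LSK Ifnar+/-, where they were 5.45% to 15.3% at P0 and 17.4% to 33.5% at P14.

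The share of Il7r cells had no common direction with age. They made up 2.19%, 1.86%, 4.16% and 1.09% of P0 cells, and 1.74%, 2.42%, 3.14% and 2.17% of P14 cells. The share was higher at P0 in both Ifnar+/- pairs and lower at P0 in both Ifnar-/- pairs, and the P0 LSK Ifnar-/- library was the lowest of the 8.

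Ly6d cells numbered 8, 9, 8 and 2 after thinning at P0 and 5, 19, 14 and 14 at P14. Il7r was detected in 66.7% to 100% of them at P0 and in 64.3% to 84.2% at P14. Dntt was found in 1, 1, 0 and 0 of the P0 cells and in 80.0% to 94.7% of the P14 cells. Cd79a, which encodes a signalling chain of the B cell receptor, was found in 22.2% to 100% at P0 and in 21.4% to 42.1% at P14.

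At P14, cells with a Dntt UMI outnumbered cells with a Rag1 UMI. Among the 197, 360, 962 and 820 cells of P14 with any Dntt UMI, Rag1 was detected in 5.08%, 6.67%, 5.82% and 4.63%, Rag2 in 6.09%, 10.3%, 10.1% and 6.22%, and Ly6d in 2.03%, 5%, 1.35% and 1.46%. These shares depend on depth: without thinning, the 312, 547, 1493 and 1276 Dntt cells held Rag1 in 10.9%, 9.87%, 9.31% and 7.52% and Rag2 in 15.5% to 23.6%. They also include cells with 1 Dntt UMI, which in LSK could not be separated from free RNA. Among the 108, 193, 443 and 301 thinned cells with 3 or more Dntt UMI, Rag1 was detected in 7.41%, 11.4%, 10.4% and 10.6%, Rag2 in 9.26%, 16.6%, 16.7% and 12.3%, and Ly6d in 2.93% to 8.29%. Il7r was detected in 19.6% to 36.3% of these and Flt3 in 84.3% to 86.4%. In cells with any Dntt UMI, Flt3 was detected in 81.6% to 84.8% and Il7r in 10.2% to 22.2%. At P14, Flt3 cells carried 83.4% to 85.8% of all Dntt UMI, and they were 24% to 26.8% of LK cells and 61.3% to 62.2% of LSK cells.

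The antibody tags gave a second readout of the same cells. CD127 is the protein of Il7r and CD135 that of Flt3. In Rag1 cells the median CD127 tag count was 120, 157, 155 and 181 at P0, against 11, 9, 21 and 17 in cells without Rag1. At P14 it was 21, 74, 42.5 and 49, against 3, 3, 2 and 3. Rag1 cells were therefore higher in CD127 in 8 of 8 libraries, and by 7.38-fold to 24.7-fold in the 6 libraries with at least 20 Rag1 cells.

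Dntt cells of P14 had a median CD135 count of 77, 69.5, 62 and 73, against 9, 9, 29 and 35 in cells without Dntt. Their CD127 medians were 7, 8, 4 and 5 against 3, 3, 2 and 3. In cells with 3 or more Dntt UMI the CD127 medians were 14, 23, 9 and 8, or 2.67-fold to 7.67-fold those of cells without Dntt, and the CD135 medians were 90.5, 80, 70 and 83. CD34 and CD48 were also higher in 4 of 4 P14 libraries, by 1.40-fold to 4.01-fold and by 1.19-fold to 1.63-fold. CD150, a tag of stem cells, and CD41, a tag of megakaryocytes and stem cells, were lower in 4 of 4, at 0.310 to 0.545 and 0.136 to 0.429 times the level of the other cells. CD117 and CD16_32 were lower in 4 of 4 as well. CD201, the protein of Procr, had no common direction in median counts. It was higher in 1 and lower in 2 of the 4 libraries, at 0.357 to 1.33 times the level of the other cells. As a median share of a cell's tags CD201 was lower in 4 of 4. In Flt3 cells alone CD201 was lower in 4 of 4. In Flt3 cells taken alone, the directions for CD135, CD127, CD34, CD150, CD41 and CD117 remained, with CD135 at 1.63-fold to 2.62-fold, whereas CD48 was higher in 3 of 4.

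Among cells with a UMI of any of the 4 genes, Ly6d cells had the highest CD127 medians at P14, 122, 130, 138 and 139, from 5 to 19 cells a library. The P0 medians of Ly6d cells were 118, 131 and 258 in the 3 libraries with 8 or 9 such cells.

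**Figure D4:**
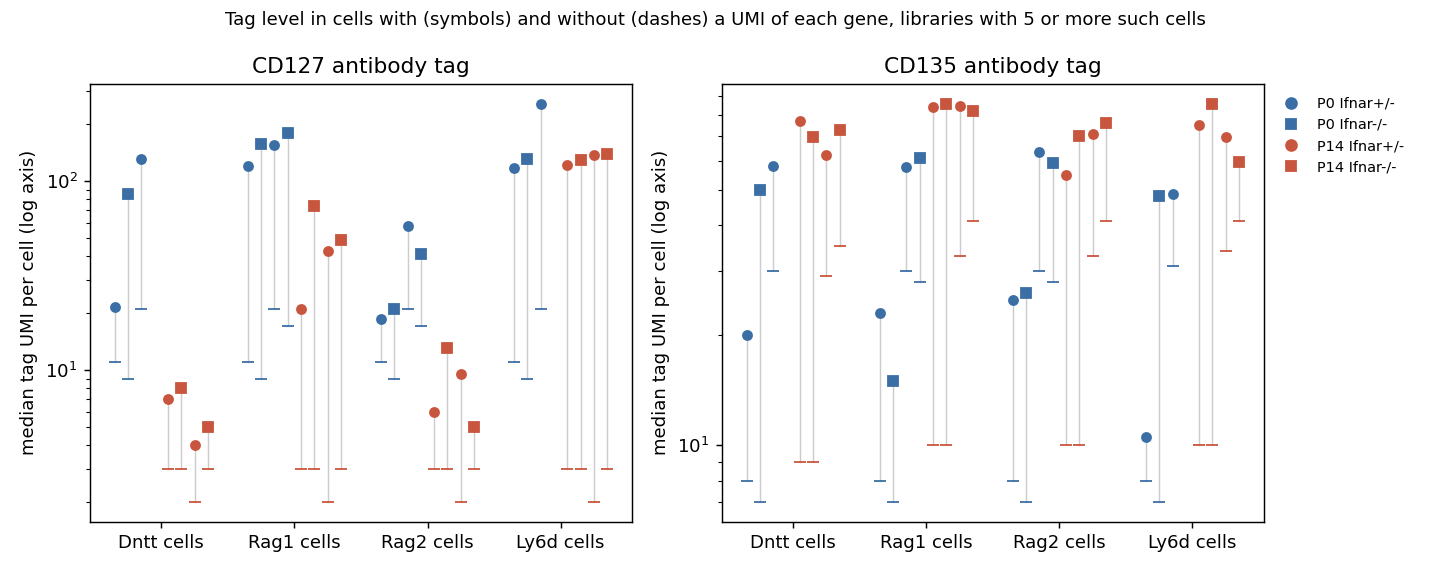
Median CD127 and CD135 antibody tag UMI per cell, on a log axis, in cells with a UMI of each gene (symbols) and in all other cells of the same library (dashes), for libraries with 5 or more such cells. Rag1 and Ly6d cells stand well above the other cells of their library in CD127, and Dntt cells of P14 in CD135.

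Genes that accompany Dntt within P14 cells were read from cells with 3 or more Dntt UMI against cells with none, over the 2435 genes with at least 50 UMI in the Dntt cells of each of the 4 libraries. Among these, the 10 genes with the largest smallest ratio were Ebf1, Arpp21, Ighm, Mzb1, Trbc2, Il12a, Cnn3, Ncf1, Notch1 and Satb1. Ebf1 was at 112, 131, 95.4 and 72.7 CPM in Dntt cells and at 0.241, 0.151, 0.365 and 0.150 CPM in cells without Dntt. The limit kept out genes of the lists that would have ranked with these 10, here named after their values were seen: Il7r with a smallest log2 ratio of 4.95, Cox6a2 with 4.90, Ccr9 with 3.61, Rag2 with 3.32, Ccr7 with 2.72 and Lck with 1.66. Ighm, the immunoglobulin heavy chain gene, was at 326 to 408 CPM against 23.8 to 43.8. Notch1, the receptor that directs cells to the T lineage, was at 204 to 247 CPM against 27.8 to 72.8, and Satb1, a chromatin organiser of lymphoid cells, at 253 to 278 CPM against 44.1 to 95.2.

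For Rag1 the same limit, in Rag1 cells, left 169 genes. Among them Dntt had the largest smallest ratio, at 958, 1753, 1461 and 1285 CPM in Rag1 cells against 54.8, 58.8, 105 and 72.4 CPM in the others. Crip1, H2afy, Tmsb10, Cmtm7, Cd47, Mef2c, Sox4, H3f3a and Cox7a2l came next of the 169, with smallest log2 ratios of 1.36 down to 0.23. Genes of the lists that fell under the limit, named after their values were seen, had larger smallest ratios than Dntt at 3.79: Ebf1 at 5.45, Blnk at 5.43 and Il7r at 4.72. These values come from 11 to 68 Rag1 cells a library.

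Across the 8 libraries, the 5 genes whose log2(CPM + 1) followed Dntt most closely were 1810030O07Rik, Hist1h1a, Fgfr1op2, Asb8 and 5830416I19Rik, with Pearson r of 0.991 to 0.995 over 14712 genes compared. Hist1h1a, a linker histone gene, was at 75.1 to 82.5 CPM at P0 and at 116 to 130 CPM at P14. Ccdc84 was closest to Ly6d (r 0.977), Lcn4 to Rag1 (0.985) and Sez6l to Rag2 (0.979). The 8 points share library, age and depth, and these correlations are a description only.

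The other genes of V(D)J recombination and end joining were read as a list. Of 14 genes of recombination and end joining, 1 was at least 2-fold higher at P14 in LK Ifnar+/- and 0 in the other 3 pairs, and none was at least 2-fold lower. Over all genes, 5.6%, 6.08%, 3.67% and 2.69% were higher and 3.70%, 3.31%, 4.18% and 7.02% lower, so the list's counts are near the background. That 1 gene was Lig4, the ligase that seals the joint, with log2 ratios of 1.24, 0.99, 0.87 and 0.06. The list's median log2 ratio was 0.07, 0.21, 0.21 and 0.03, beside 0.13, 0.14, 0.07 and -0.06 over all genes. Poll and Polm, polymerases related to TdT, had log2 ratios of -0.20 to -0.26 and of -0.03 to -0.996. Of this list, the 4 with the largest smallest ratio in 1 direction were Atm at 0.28 to 0.57, Prkdc at 0.24 to 0.41, Poll and Paxx at 0.19 to 0.67.

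In each pair more genes of the B lineage list were at least 2-fold lower at P14 than were at least 2-fold higher. Of 11 measured, 7, 4, 7 and 8 were at least 2-fold lower in the 4 pairs, beside 3.70%, 3.31%, 4.18% and 7.02% of all genes. The list's median log2 ratio was -1.42, -0.69, -1.62 and -1.90. Igll1 was at 2.01, 1.96, 5.48 and 3.58 CPM at P0 and at 0.298, 0.180, 0.0841 and 0.0480 CPM at P14. Vpreb3 had log2 ratios of -2.41 to -5.31 and Vpreb1 of -1.19 to -2.24. Blnk, a linker of receptor signalling, was the 1 gene of the list at least 2-fold higher in any pair, with log2 ratios of 0.68 to 1.01.

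Among regulators of early lymphoid cells the 2-fold differences were all towards lower levels at P14. Of 14 measured, none was at least 2-fold higher at P14 and 2, 1, 3 and 2 were at least 2-fold lower, with a median log2 ratio of 0.03, 0.02, -0.21 and -0.23. Over all genes, 5.6%, 6.08%, 3.67% and 2.69% were higher and 3.70%, 3.31%, 4.18% and 7.02% lower, and the median was 0.13, 0.14, 0.07 and -0.06. Id3, which encodes an inhibitor of the E proteins that drive lymphoid genes, was at 5.24, 7.22, 19.1 and 24.4 CPM at P0 and at 0.388, 0.287, 0.528 and 0.432 CPM at P14. The E protein gene Tcf3 had log2 ratios of -0.12 to -0.25, Ikzf1 of 0.03 to 0.16, Id2 of -0.60 to -1.68 and Pax5 of -0.36 to -2.28. Ebf1 and Pax5 are in both this list and the B lineage list. In Rag1 cells, Id3 was detected in 26.7% to 36.8% at P0 and in 0% to 9.09% at P14.

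Of 10 surface genes of early lymphoid cells, 0, 0, 0 and 5 were at least 2-fold higher at P14 and 0, 1, 1 and 1 lower, with a median log2 ratio of 0.56, 0.50, 0.01 and 0.80. Over all genes, 5.6%, 6.08%, 3.67% and 2.69% were higher and 3.70%, 3.31%, 4.18% and 7.02% lower, and the median was 0.13, 0.14, 0.07 and -0.06. Flt3 had log2 ratios of 0.42 to 0.93, and Il7r of -0.15, 0.66, -0.09 and 1.55. Il7r, Ccr9, Ccr7 and Cd52 were among those that passed in the LSK Ifnar-/- pair. The P0 library of that pair also differed from P0 LSK Ifnar+/-, with 5 of these 10 genes at least 2-fold lower. Between the P14 LSK libraries 0 of the 10 were 2-fold apart. The part of this P0 library in the count was not tested. Cd52 had log2 ratios of 0.53 to 1.18, Ccr7 of 0.51 to 1.57 and Cd74, which assists antigen presentation, of -0.92 to -2.05.

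Among T lineage genes, 1, 2, 1 and 2 of 8, 8, 7 and 7 measured were at least 2-fold higher, and 0, 1, 1 and 0 lower. Over all genes, 5.6%, 6.08%, 3.67% and 2.69% were higher and 3.70%, 3.31%, 4.18% and 7.02% lower. The list's median log2 ratio was 0.31, 0.41, -0.05 and 0.70, beside 0.13, 0.14, 0.07 and -0.06 over all genes. Bcl11b, a transcription factor of T cell commitment, was at 70, 50, 0 and 2 UMI at P0 and at 28, 157, 52 and 135 UMI at P14. In CPM this was 0.231, 0.210, 0 and 0.0147 against 0.279, 1.05, 0.398 and 1.08. Set against the floor of 3 counts per library (0.0169 and 0.0220 CPM), Bcl11b was higher at P14 in both LSK pairs. Lck, a kinase of T cell receptor signalling, had log2 ratios of 0.62 to 1.54, and Tcf7 of 0.39 to 2.001.

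**Figure D5:**
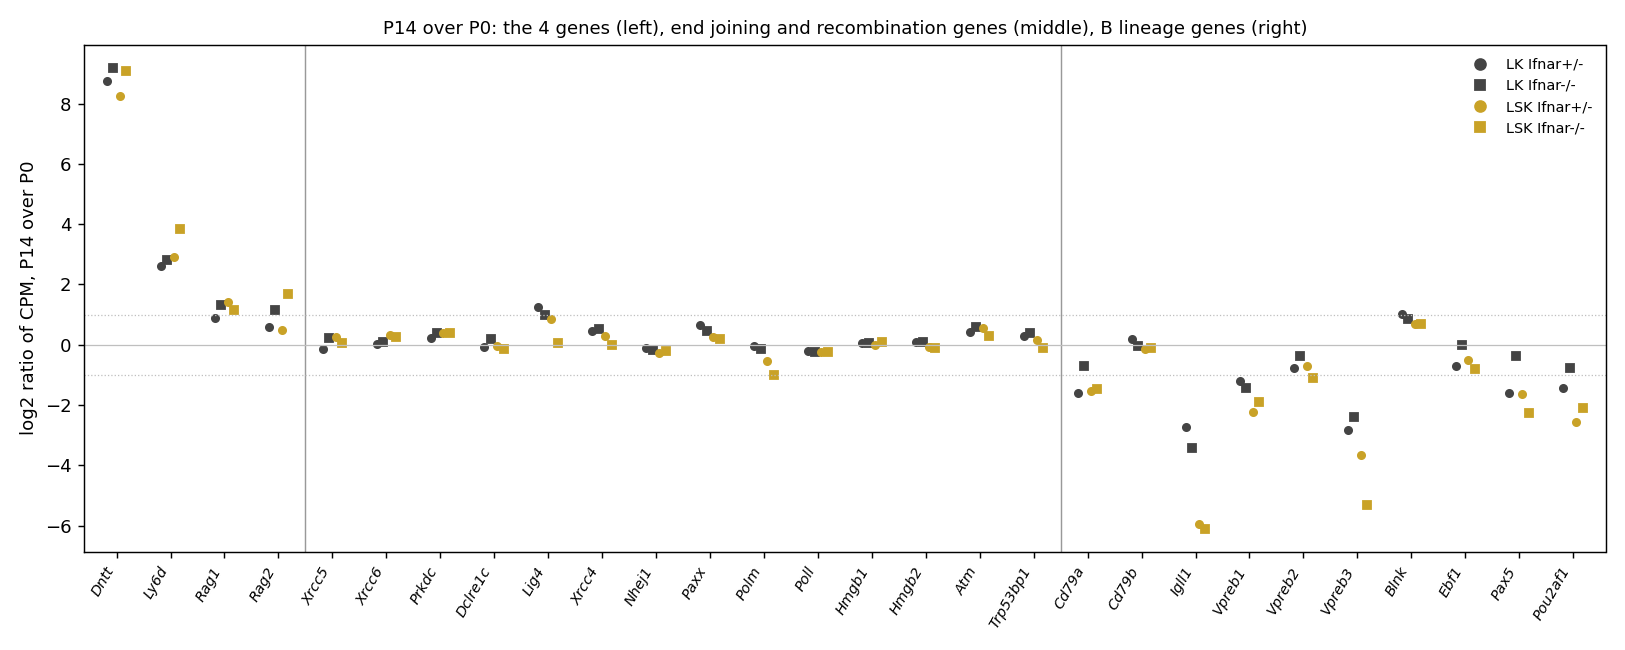
Log2 ratio of CPM at P14 over P0 in the 4 pairs of libraries for Dntt, Ly6d, Rag1 and Rag2 (left), genes of recombination and end joining (middle) and genes of the B lineage (right, 10 of the 11 measured); dotted lines mark 2-fold. Dntt lies between 8.26 and 9.19, the recombination genes lie between -0.996 and 1.24, and Igll1 falls to between -2.73 and -6.11.

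Markers of another cell type moved with age. Of 6 hepatocyte genes, 4 were at least 2-fold lower at P14 in each pair, beside 3.70%, 3.31%, 4.18% and 7.02% of all genes. Their summed level was 11 to 14.2 CPM at P0 and 5.07 to 9.12 CPM at P14, and the defining genes Alb, Ttr and Serpina1e were at 0 in all 4 P14 libraries. Afp moved the other way, with log2 ratios of 0.81, 0.77, 0.39 and 0.32, and held 7.48 of the 9.12 CPM in P14 LSK Ifnar-/-. The part of this in the age differences of the 4 genes was not tested.

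Marker lists of other cells were counted between the ages in the same way. Counts of genes at least 2-fold higher, then lower, at P14 are given for the 4 pairs, where the shares over all genes were 5.6%, 6.08%, 3.67% and 2.69% higher and 3.70%, 3.31%, 4.18% and 7.02% lower. For HSC genes they were 1, 2, 0 and 0 higher and 1, 0, 1 and 3 lower of 8, and for erythroid genes 1, 1, 0 and 0 higher and 0, 0, 3 and 4 lower of 8. For neutrophil genes they were 0, 0, 0 and 1 higher and 2, 2, 1 and 1 lower of 5 or 6, and for monocyte genes 1, 0, 0 and 1 higher and 0, 1, 4 and 0 lower of 6. Megakaryocyte genes were higher in 2, 4, 1 and 2 and lower in 0, 0, 0 and 1 cases of 5 or 6. Mast and basophil genes were higher in 4, 1, 2 and 1 and lower in 2, 2, 0 and 3 of 4 to 6. Plasmacytoid dendritic genes were higher in 1, 1, 0 and 2 and lower in 0, 1, 1 and 0 of 5 to 7. NK and innate lymphoid genes were higher in 0, 0, 0 and 1 and lower in 0, 0, 0 and 1 of 3 or 4. Their part in the age differences was not tested.

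Between the genotypes, 4 of 16 combinations of gene and pair were at least 2-fold apart. These were Ly6d in P0 LK and P14 LK, and Dntt and Rag2 in P0 LSK. Over all genes, the share at least 2-fold apart was 1.32% for P0 LK, 6.77% for P0 LSK, 0.702% for P14 LK and 0.673% for P14 LSK.

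In P0 LSK, Rag2 was at 1.02 CPM in the Ifnar-/- library (139 UMI) and at 3.42 CPM in the Ifnar+/- library (606 UMI), a log2 ratio of -1.74 (-2.02 to -1.48). Dntt was at 0.169 against 0.434 CPM there, a log2 ratio of -1.34 (-2.10 to -0.68) that rests on 9 against 43 cells. Rag1 had a log2 ratio of -0.20, with an interval of -0.52 to 0.11 that includes 0.

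The cell makeup of the P0 LSK Ifnar-/- library also differed. Cells with 3 or more UMI of HSC genes were 88.2% of it against 62.3% of the Ifnar+/- library, and cells with Flt3 outside that gate were 5.39% against 21.6%. Il7r stood at 2.24 against 10.7 CPM. Of 6 monocyte genes, 6 were at least 2-fold lower in the Ifnar-/- library, beside 2.26% of all genes, at a summed 22.3 against 79.7 CPM. Of 10 early lymphoid surface genes, 5 were at least 2-fold lower, Il7r, Ccr9, Ccr7 and Cd74 among them, with a list median of -1.01 beside 0.15 over all genes. Plasmacytoid dendritic genes were lower in 3 of 6 cases and T lineage genes in 2 of 6. The HSC list summed to 990 against 531 CPM. Of 6 neutrophil genes, 5 were at least 2-fold apart, beside 6.77% of all genes: Mpo and Ctsg were lower and Elane, Fcnb and Ltf higher, and the list summed to 462 against 798 CPM, with Mpo at 112 against 367 CPM. Of 6 mast and basophil genes, 6 were at least 2-fold apart. Cpa3, Prss34 and Cma1 were higher, with Cma1 at 91.3 against 4.56 CPM, and Mcpt8, Ms4a2 and Gzmb were lower, each under 1 CPM in both libraries. Within Flt3 cells outside the HSC gate, Rag2 was detected in 1.60% against 5.98%. The part of the makeup in the Rag2 and Dntt differences was not tested.

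At P14 neither Dntt, Rag1 nor Rag2 was 2-fold apart between the genotypes. Dntt had a log2 ratio of 0.16 (0.10 to 0.21) in LK and of -0.51 (-0.54 to -0.48) in LSK. The shares of thinned cells with at least 1 Dntt UMI had exact intervals that overlapped between the genotypes in either fraction. For 3 or more Dntt UMI they overlapped in LK but not in LSK, at 8.76% to 10.49% in Ifnar+/- and 6.13% to 7.65% in Ifnar-/-. Without thinning they also overlapped in LK alone, and the LSK intervals were 31.0% to 33.72% and 27.74% to 30.45%. Rag1 had a log2 ratio of 0.71 (0.32 to 1.13) in LK and of -0.46 (-0.68 to -0.24) in LSK, and Rag2 of 0.22 and -0.56. In LSK these 3 genes were thus lower in the Ifnar-/- library by counts, whereas the Ly6d sum was higher there, with a log2 ratio of 0.29 (0.03 to 0.55). For Ly6d the share of cells went the other way without thinning, at 0.845% (39 cells) in Ifnar+/- and 0.638% (28 cells) in Ifnar-/-, and it was 14 cells in either library after thinning. As 10 cells held 85.0% of the Ifnar-/- Ly6d UMI, no order is read for it. Cells with Flt3 and Il7r were 2.62% of P14 LSK Ifnar+/- cells and 1.78% of Ifnar-/- cells, while Flt3 cells were 62.2% and 61.3%.

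Within the Flt3 and Il7r cells of P14 LSK, Dntt was at 1584 CPM in Ifnar+/- and at 1210 CPM in Ifnar-/-, with detection in 93.4% (113 of 121) and 89.7% (70 of 78). The free RNA of the 2 libraries also differed in Dntt, at 239 and 104 CPM as given above. With 5% of UMI taken out in proportion to free RNA, the LSK log2 ratio of Dntt was -0.46. For Rag1 in P14 LK the share of cells with a UMI was 1.78% of Ifnar+/- and 1.47% of Ifnar-/- cells without thinning, against the direction of the sums. After thinning it was 0.456% (11 cells) and 0.695% (27 cells), in the direction of the sums, with intervals of 0.228% to 0.815% and 0.459% to 1.01% that overlapped.

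Ly6d in P14 LK was at 0.717 CPM in Ifnar+/- and 1.69 CPM in Ifnar-/-, a log2 ratio of 1.23. That ratio rests on 12 against 29 cells, or 0.498% (0.257% to 0.868%) against 0.746% (0.5% to 1.07%) of cells, and these intervals overlap. After thinning, 5 and 19 cells held it, or 0.207% (0.0674% to 0.483%) against 0.489% (0.295% to 0.763%), which is in the direction of the sums with intervals that overlap too. In P0 LK the log2 ratio of 1.04 rests on 14 against 16 cells. Those are 0.238% (0.130% to 0.398%) and 0.277% (0.159% to 0.450%) of cells.

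Between the fractions, 9 of 16 combinations were at least 2-fold higher in LSK. Of these, 8 met the minimum of 50 UMI in either library, and Dntt in P0 Ifnar-/-, with 20 and 23 UMI, did not. Among genes that met it, the background was 18.7% of genes in P0 Ifnar+/-, 28.0% in P0 Ifnar-/-, 12.6% in P14 Ifnar+/- and 16.0% in P14 Ifnar-/-. Dntt had log2 ratios of LSK over LK of 2.07, 1.003, 1.56 and 0.90 in that order, and Rag1 of 1.60, 1.11, 2.13 and 0.96. In P0 Ifnar-/- 1 LSK cell held 14 of the 23 Dntt UMI. The thinned Dntt shares there went the other way, at 0.0288% in LSK and 0.0867% in LK. This ratio also reversed with the stricter mitochondrial limit given at the end. Rag2 stood at 1.69, 0.27, 1.59 and 0.80. Ly6d was at 0.996, -0.68, 1.28 and 0.33, so its direction differed between pairs.

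Among the Flt3 and Il7r cells of P14, Dntt was detected in 77.8% (60.8% to 89.9%) and 89.6% (80.6% to 95.4%) of LK cells, and in 93.4% (87.4% to 97.1%) and 89.7% (80.8% to 95.5%) of LSK cells. The intervals of the fractions overlapped in either genotype. In P14 LK the Flt3 cells were 26.8% and 24% of cells, and in LSK 62.2% and 61.3%. Dntt in Flt3 cells alone was at 174 and 241 CPM in LK and at 180 and 129 CPM in LSK, so among Flt3 cells the LSK library was the lower one in Ifnar-/- and close to the LK library in Ifnar+/-.

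Cells on either side of the limit of 7500 UMI were read for the members. P14 LSK Ifnar-/- cells just above the limit, from 7500 to 10000 UMI, held Dntt at 26.2 CPM (78 cells), and those just below it, from 5000 to 7500 UMI, at 44.6 CPM (38 cells). In P14 LSK Ifnar+/- the values were 26.8 CPM above the limit (53 cells) and 23.3 CPM below it (13 cells). At P0 the cells just above the limit held no Dntt UMI in any library. Just below it, Dntt was at 35.6 CPM (7 UMI in 32 cells) in P0 LK Ifnar+/- and at 0 in the other 3. Just below the limit in P0 LK Ifnar-/- (47 cells), Rag1 was at 52.6 CPM (15 UMI) and Ly6d at 38.6 CPM (11 UMI).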

How the data were processed

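Single-cell RNA and antibody tags were counted in 8 sorted samples. The authors deposited raw counts (UMI per feature and barcode, without a cell filter). The matrices came from Cell Ranger 4 per the file headers, while the submitters' processing notes name Cell Ranger 6.0.1 and mm10, and neither is preferred here. Cells needed 7500 gene UMI and at most 10% mitochondrial UMI. No doublet caller was run. UMI were summed per library and scaled to CPM, and log2 ratios were taken after adding 0.5 counts. Intervals are exact Poisson or Clopper-Pearson at 95%, and a count of 0 allows 3 counts of the total. With 1 library per group nothing was tested. A call is a 2-fold difference among genes of at least 50 UMI. Shares were read after thinning cells to 7500 UMI. Ratios, intervals and thinning were tried on simulated Poisson counts, which cannot show how the intervals behave where a few cells hold most UMI. Python 3.11.15, numpy 2.4.6, scipy 1.17.1 and edgeR 4.0.16 (TMM factors only) were used.

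The 4 genes and all lists were chosen with earlier results of these data known. Named genes are the 4 members, for described lists the 4 genes with the largest smallest age ratio in 1 direction, the 10 genes most like Dntt and Rag1 within P14 cells (of genes with at least 50 thinned UMI in those cells of each P14 library), and the 5 most like each member across libraries. List members outside this rule were named after their values were seen. A few list members are counted but not reported here by name. Further lists (T lineage, NK and innate lymphoid, plasmacytoid dendritic, HSC, erythroid, neutrophil, monocyte, megakaryocyte, mast and basophil, hepatocyte) served as markers.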

Additional observations from a re-analysis of the deposited data

Results flagged for a closer look

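For Dntt and Rag1 the Ifnar-/- over Ifnar+/- ratio pointed in opposite directions in the 2 fractions at P14, with counting intervals on either side of 0. Dntt had a log2 ratio of 0.16 in LK and of -0.51 in LSK. Rag1 had a log2 ratio of 0.71 in LK and of -0.46 in LSK. The difference between the fractions was not tested, since each group had 1 library. The LK value of Rag1 comes from 74 and 182 UMI in 43 and 57 cells. The 10 richest cells held 55.4% and 64.8% of those UMI, which the counting intervals do not cover. Without thinning, the share of LK cells with Rag1 went the other way, at 1.78% in Ifnar+/- and 1.47% in Ifnar-/-. For Dntt the intervals of the thinned shares overlapped in LK, at 7.11% to 9.34% and 8.37% to 10.2%. They also overlapped in LSK, at 19.7% to 22% and 17.6% to 19.9%. The LSK intervals did not overlap for 3 or more thinned Dntt UMI, at 8.76% to 10.49% and 6.13% to 7.65%. Nor did they without thinning, at 31.0% to 33.72% and 27.74% to 30.45%.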

How the results depend on the processing

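No paired analysis was possible because the groups compared share fewer than 2 replicate numbers, with 1 library each, and an additive fit over the 8 libraries was not run. With 5 CPM added before the log, a setting above the level of most of these genes, 4 in place of 13 of 16 age ratios, 0 in place of 4 genotype ratios and 1 in place of 9 fraction ratios (8 with the minimum of 50 UMI) were at least 2-fold, and the Dntt age ratios were 3.30, 3.44, 4.67 and 4.26. With at most 5% mitochondrial UMI the Dntt age ratios in LSK were 8.69 and 10.4, and the P0 Ifnar-/- ratio of LSK over LK for Dntt reversed to -0.0816. TMM factors, size factors, other UMI limits, removal of 5% free RNA and of the cells with the most UMI left these 3 counts within 1.5 times. TMM factors moved age ratios by up to 0.18 and fraction ratios by up to 0.42 (log2), and size factors by up to 0.21 and 0.50. Under either scaling the LSK over LK ratios of Dntt and Rag1 in P0 Ifnar-/- fell below 2-fold. The Rag2 age ratio in LK Ifnar-/- did so too. At P14, Dntt was found in 12.9%, 14.1%, 32.4% and 29.1% of cells without thinning, in 4.89%, 5.41%, 11.6% and 8.73% at 2000 UMI, and in 5.48%, 6.13%, 13% and 10.3% when 2 UMI were needed. Among Rag1 cells Dntt was found in 13.1% of P0 LK Ifnar+/- without thinning (8 of 61), in 57.1% of P14 LSK Ifnar-/- at 2000 UMI, and in 100%, 100%, 100% and 92.9% at P14 when 2 Rag1 UMI were needed. Among Flt3 and Il7r cells it was found without thinning in 7.22% of P0 LSK Ifnar+/-, 95.1% of P14 LK Ifnar+/- and 96.1% of P14 LK Ifnar-/-. At 2000 UMI the values were 0%, 0% and 6.06% in P0 LK Ifnar+/-, P0 LK Ifnar-/- and P0 LSK Ifnar+/-, and 50%, 85.7% and 63.6% in the P14 libraries of LK Ifnar+/- (1 of 2 cells), LSK Ifnar+/- and LSK Ifnar-/-. With 2 UMI of each gene needed they were 0% in both P0 LK libraries and 100% in P14 LK Ifnar+/-. Over these settings the share of Rag1 cells, or of Flt3 and Il7r cells, with Dntt was at most 20% in P0 libraries and at least 50% in P14 libraries. The cause of the shifts was not tested. Rag1, Ly6d and P0 Dntt values are limited by their few cells.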
